A study of Mus musculus with 3 samples.

Results

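The genes whose products start transcription by RNA polymerase II were examined for HBO1 binding at their own promoters in mouse ESCs (embryonic stem cells). They were taken from the GENCODE vM21 annotation by symbol, as every protein-coding gene named Polr2 plus a letter, Taf plus a digit, Gtf2 plus a letter or Med plus a digit, which gave 82 of 21938 protein-coding genes. Of these, 12 encode polymerase subunits, 16 TFIID subunits, 13 subunits of TFIIA, TFIIB, TFIIE, TFIIF or TFIIH, and 30 Mediator subunits. The other 11 match by name but encode proteins outside these complexes, namely Polr2m, Taf5l, Taf6l, Taf1a, Taf1b, Taf1c, Taf1d, Taf15, Gtf2i, Gtf2ird1 and Gtf2ird2.

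RNA polymerase II transcribes protein-coding genes and is built around its catalytic subunit, the product of Polr2a. At a promoter it is placed by general transcription factors. TFIID, made of TBP and TBP-associated factors (TAFs), recognizes the promoter, TFIIA and TFIIB join it, TFIIF arrives with the polymerase, and TFIIE and TFIIH open the DNA. Mediator carries signals from DNA-bound activators to the polymerase through its head, middle and tail modules, which the Med14 product joins, and a separable kinase module modulates it. HBO1 (Kat7) is a MYST family acetyltransferase of histones H3 and H4 that works in complexes with scaffold proteins such as Jade1.

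HBO1 ChIP-seq used Oct1 deficient mouse ESCs, Oct1 being the Oct4 paralog encoded by Pou2f1. The cells were grown with 3 µM of the GSK3 inhibitor CHIR99021, 1 µM of the MEK inhibitor PD0325901 and ascorbic acid. The study's methods also name LIF in the medium. Chromatin was fixed with 1% formaldehyde. HBO1 was immunoprecipitated in 2 samples, and 1 further sample was input chromatin without immunoprecipitation, all of the same genotype, with no wild-type sample. The antibody label of the second ChIP sample reads HBO2, while its title and the study's methods name HBO1, and it was taken as HBO1. A single deposited list of 13823 peaks was taken as that of both ChIP samples, so no value below has a spread between replicates, no test between conditions was possible, and peaks and genes are not replicates. The input held 31973678 aligned read ends, and the depth of the ChIP samples was not analysed here. The cells had grown on arrested mouse fibroblast feeders, which the study depleted on gelatin before its experiments. The labelled cell type could not be checked against marker genes, since RNA was not measured.

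Promoters are shown for the polymerase, for TFIID, for TFIIA to TFIIH and for Mediator, each by the gene whose peak had the highest −log10 q (q being the false discovery rate the peak caller gave) within 1 kb of a transcription start site (TSS) and by the gene with the most GC among those without a peak within 1 kb, in both cases among genes with no other annotated transcript in the window. Each sequence is the 200 bases before the outermost TSS, written 5′ to 3′ on the strand of the gene, from mm10 (GRCm38). Capitals mark matches, on either strand, to 9 motifs spelled out further on, among them the GC box GGGCGG and the TATA box TATAAA.
Polr2a (peak, chr11:69758638-69758837, minus strand): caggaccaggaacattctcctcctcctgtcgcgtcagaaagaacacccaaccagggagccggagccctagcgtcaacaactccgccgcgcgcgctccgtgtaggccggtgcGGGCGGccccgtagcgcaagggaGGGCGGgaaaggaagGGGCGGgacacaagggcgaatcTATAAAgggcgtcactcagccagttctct
Polr2j (no peak, chr5:136116431-136116630, plus strand): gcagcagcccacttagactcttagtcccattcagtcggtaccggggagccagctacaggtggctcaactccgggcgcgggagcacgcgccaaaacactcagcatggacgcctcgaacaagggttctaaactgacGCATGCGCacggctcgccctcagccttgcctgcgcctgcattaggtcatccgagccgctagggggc
Taf13 (peak, chr3:108571498-108571697, plus strand): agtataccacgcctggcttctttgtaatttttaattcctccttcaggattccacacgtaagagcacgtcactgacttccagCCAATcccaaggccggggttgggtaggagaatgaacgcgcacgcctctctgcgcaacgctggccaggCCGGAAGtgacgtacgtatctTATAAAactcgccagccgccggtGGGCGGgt
Taf12 (no peak, chr4:132274175-132274374, plus strand): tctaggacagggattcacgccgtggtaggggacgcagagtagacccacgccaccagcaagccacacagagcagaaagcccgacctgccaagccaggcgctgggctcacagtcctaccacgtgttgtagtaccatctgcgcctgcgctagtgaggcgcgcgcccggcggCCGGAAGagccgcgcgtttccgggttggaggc
Gtf2a1 (peak, chr12:91590488-91590687, minus strand): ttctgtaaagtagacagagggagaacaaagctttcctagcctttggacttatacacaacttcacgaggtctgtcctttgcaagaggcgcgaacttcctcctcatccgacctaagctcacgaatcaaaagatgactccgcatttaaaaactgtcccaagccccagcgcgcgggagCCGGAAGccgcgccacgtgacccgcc
Gtf2b (no peak, chr3:142764845-142765044, plus strand): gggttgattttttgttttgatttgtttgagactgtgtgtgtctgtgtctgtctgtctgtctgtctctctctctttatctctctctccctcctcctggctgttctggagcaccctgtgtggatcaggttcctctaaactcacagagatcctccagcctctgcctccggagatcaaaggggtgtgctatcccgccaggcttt
Med13 (peak, chr11:86357603-86357802, minus strand): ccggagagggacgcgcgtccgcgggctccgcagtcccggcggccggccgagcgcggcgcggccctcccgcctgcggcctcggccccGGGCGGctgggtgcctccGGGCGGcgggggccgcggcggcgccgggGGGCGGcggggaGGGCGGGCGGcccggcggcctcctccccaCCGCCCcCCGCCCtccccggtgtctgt
Med14 (no peak, chrX:12762074-12762273, minus strand): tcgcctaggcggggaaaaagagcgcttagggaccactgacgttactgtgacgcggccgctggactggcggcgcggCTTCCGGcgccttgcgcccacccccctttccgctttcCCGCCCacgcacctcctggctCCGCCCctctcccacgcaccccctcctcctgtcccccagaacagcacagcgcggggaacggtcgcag
Within these 200 bases the Med13 window had 37 CG dinucleotides and a GC content of 88.5%, and that of Gtf2b had 2 CG dinucleotides and 50.5% GC. The genes without a peak were picked here for their GC content. These windows therefore cannot compare base composition between genes with and without a peak. The window of Med14, a gene without a peak, held 70.5% GC. Those of Polr2a, Taf13 and Gtf2a1, genes with a peak, held 64.5%, 55.5% and 53.5%.

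Of the 82 genes, 27 had an HBO1 peak with its edge within 1 kb of any of their TSSs, or 32.9% (22.9 to 44.2% as an exact binomial 95% confidence interval, for counting error alone). Among all protein-coding genes the share was 21.7%. Promoter GC content was measured in the 1 kb around the outermost TSS, and coding genes of like GC content, in 20 classes of equal size, gave 24.8%, or 20.3 genes where 27 were found. When the classes were set by the ratio of observed to expected CpG dinucleotides, they gave 37.0%, above the share of the machinery genes, so the direction of the difference depended on which property of the promoter was held alike. The machinery genes had a median CpG ratio of 0.78 and a median GC content of 56.8%, while all coding genes had 0.55 and 54.8%.

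The excess over the GC classes was small for the subunits of the complexes themselves. Among the 71 genes that encode such subunits, 20 had a peak, a share of 28.2% (95% confidence interval 18.1 to 40.1%), with 24.2% from the GC classes and 37.2% from the CpG classes. The 11 genes matched by name alone had a peak in 7 cases, a share of 63.6% (30.8 to 89.1%), with 28.5% from the GC classes and 36.3% from the CpG classes. All 27 genes with a peak also had one within 1 kb of the outermost TSS, or 32.9% of the 82 genes. By the outermost TSS 18.7% of all coding genes had a peak, and the GC classes gave 21.7%. A TSS lay inside a peak for 18 of the 82 genes (22.0%), and for 10.9% of all coding genes. Coding genes of like GC content gave 12.4%. With the outermost TSS of each gene alone it did so for 11 of the 82 (13.4%). For all coding genes this was 3.53%, and the GC classes gave 4.07%. No share from the CpG classes, which turned the direction for peaks within 1 kb, is given for a TSS inside a peak. Within 1 kb, 9 of the 82 genes (11.0%) reached a −log10 q of 10 or more, as did 7.97% of all coding genes.

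**Figure D1:**
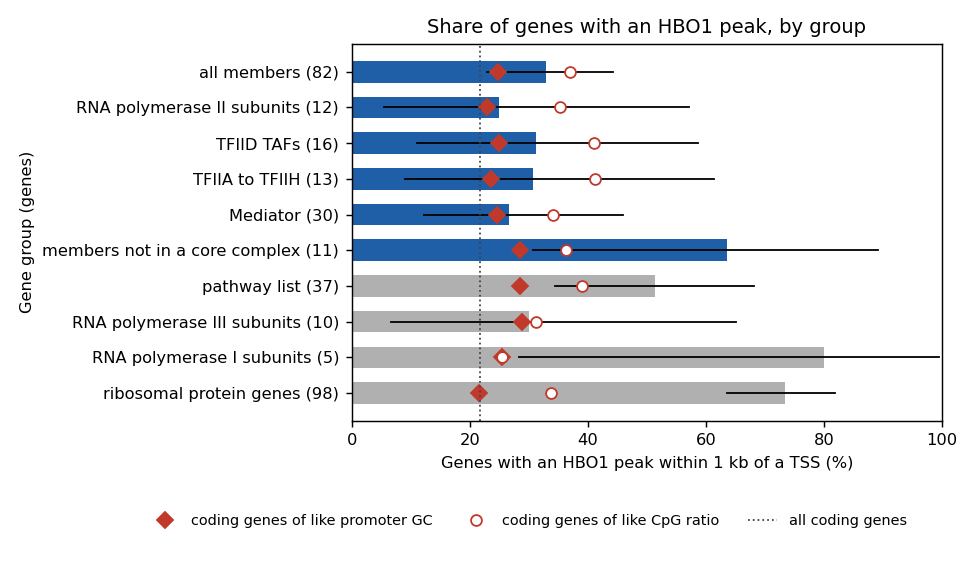
Share of genes with an HBO1 peak within 1 kb of a TSS (x axis, percent) for groups of genes (y axis, number of genes in parentheses). Bars are observed shares, blue for the machinery genes and gray for other genes, black lines are exact binomial 95% confidence intervals, red diamonds and open circles are the shares of coding genes of like GC content and like CpG ratio, and the dotted line is the 21.7% of all coding genes. The 4 core complexes lie between 25.0% and 31.2%, and ribosomal protein genes, taken by symbol, reach 73.5%.

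Among the machinery genes themselves, those with GC-rich promoters had peaks more often. All coding genes were divided into 5 bands of promoter GC content, from low to high, with like numbers of genes. Peaks were found at 2 of 21 machinery genes in band 2 (9.52%), 5 of 19 in band 3 (26.3%), 10 of 25 in band 4 (40.0%) and 10 of 16 in band 5 (62.5%). The other coding genes of these bands had peaks in 12.0%, 19.2%, 27.4% and 45.6% of cases. The lowest band held a single machinery gene, Med10, without a peak. The genes with a peak had a median GC content of 60.5%, a median CpG ratio of 0.85 and a median of 80.0 input read ends across the kilobase centered on the outermost TSS, and those without had 54.9%, 0.74 and 58.0. Coding genes of like input, in 20 classes, gave 28.4% for the 82 genes. Whether the input affects which genes had a peak was not tested.

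**Figure D2:**
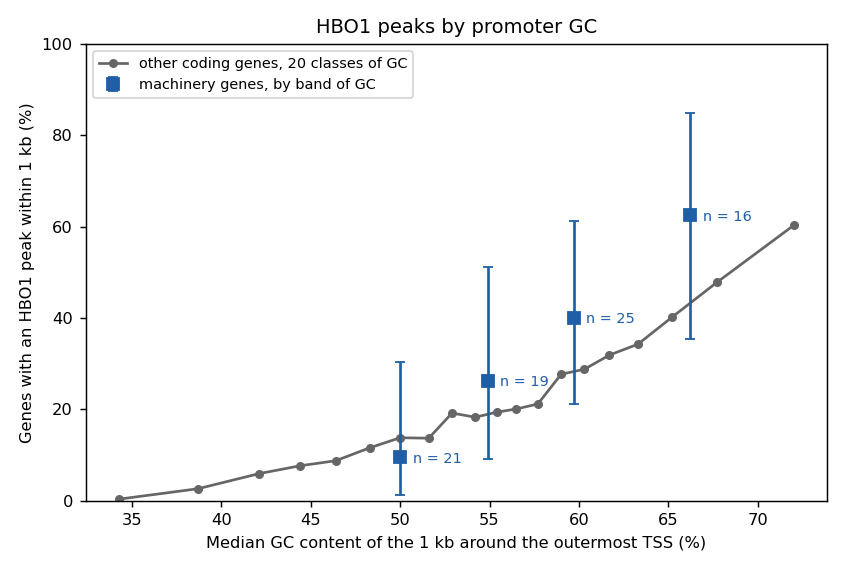
Share of genes with an HBO1 peak within 1 kb of a TSS (y axis, percent) against the median GC content of the 1 kb around the outermost TSS (x axis, percent). Gray points joined by a line are the other coding genes in 20 classes of GC content, and blue squares are the machinery genes in bands 2 to 5 of GC content with exact binomial 95% confidence intervals and the number of genes; the squares run from 9.52% to 62.5%.

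Of the 12 polymerase subunit genes, 3 had a peak, Polr2a, Polr2c and Polr2e, a share of 25.0% (5.49 to 57.2%) beside 23.0% from the GC classes and 35.3% from the CpG classes. The one with the highest −log10 q was at Polr2a, a minus-strand gene of chromosome 11 (69733997 to 69758637 in mm10). It spanned 69758047 to 69758735 and 2 of the Polr2a TSSs, its summit lay in a UTR, and it was enriched 5.17-fold over the local background at a −log10 q of 28.3. A further peak of 4.70-fold and a −log10 q of 4.60 lay at an inner TSS, 21167 bp downstream of the outermost one, over 5 input read ends. Polr2c, a subunit of the assembly platform of the enzyme, had a weak peak of 2.11-fold and a −log10 q of 4.54. Polr2e, whose product is shared by all 3 nuclear RNA polymerases, had peaks of 2.82-fold and 2.15-fold, at −log10 q of 5.38 and 3.01. Both lay downstream of its outermost TSS, from 955 bp onward, and the stronger covered an inner TSS.

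The other 9 subunit genes had no peak within 1 kb. The nearest peak lay 20684 bp from a TSS of Polr2b, the second largest subunit, 15198 bp from Polr2d and 5346 bp from Polr2g, which encode the stalk, 31690 bp from Polr2f, and 24100 bp from Polr2h. It lay 29352 bp from Polr2i, 136124 bp from Polr2j, 230106 bp from Polr2k and 5393 bp from Polr2l. Among them Polr2b and Polr2l were in the highest band of promoter GC content, with 62.8% and 63.6% GC and 130 and 101 input read ends around the TSS, more input than the 73 at Polr2a. Polr2m, which encodes a protein that binds the polymerase and is not a subunit, had a peak of 1.89-fold and a −log10 q of 4.44 over its outermost TSS.

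Of the 16 TFIID genes, 5 had a peak, Taf4, Taf4b, Taf5, Taf10 and Taf13, a share of 31.2% (11.0 to 58.7%) beside 25.0% from the GC classes and 41.0% from the CpG classes. Taf13, which encodes a histone-fold subunit, had the lowest promoter GC content of the 27 genes with a peak. Its peak on chromosome 3 from 108571584 to 108571978 covered its TSSs, with 2.88-fold enrichment at a −log10 q of 14.3, and its promoter held 48.8% GC, in a class where 11.6% of other coding genes had a peak. Taf13 lies in a segment of chromosome 3 from 100 to 140 Mb with more input, where the 273 coding genes had a median of 121 input read ends around the TSS while all coding genes had 47.0. Taf13 itself had 60 input read ends there, and without the genes and peaks of this segment the share of machinery genes with a peak was 32.1%.

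Taf5, which encodes a WD-repeat scaffold subunit, had a peak of 3.02-fold and a −log10 q of 13.5 over its TSS. The paralogs Taf4 and Taf4b both had peaks, of 2.29-fold and 2.38-fold at −log10 q of 7.87 and 8.62, and their promoters held 79.4% and 65.2% GC. The Taf10 peak was weak, at 1.75-fold and a −log10 q of 3.14. Taf1, which encodes the largest subunit, had none within 1 kb, and the nearest, 4650 bp away, was enriched 11.4-fold at a −log10 q of 24.8. Taf11, the histone-fold partner of the Taf13 product, and Taf9 were in the highest band of promoter GC content, with 63.7% and 63.4% GC, and had their nearest peaks at 10951 and 38770 bp. Taf12, which the study counts among the genes with a MORE site for Oct4, had its nearest peak 3846 bp away, with 3.99-fold and a −log10 q of 4.50. TBP itself is encoded by Tbp, outside the symbol rule, and its nearest peak was 11396 bp away.

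Of the 13 genes for TFIIA to TFIIH, 4 had a peak, a share of 30.8% (9.09 to 61.4%) beside 23.6% from the GC classes and 41.3% from the CpG classes. Both TFIIA genes of general use had one. By −log10 q the peak of Gtf2a1 ranked next after that of Taf1d among the 82 genes. It lay on chromosome 12 from 91589005 to 91589996, with 5.02-fold and a −log10 q of 37.2. It began 491 bp inside the gene and its summit lay in an intron, 1151 bp from the outermost TSS, so the 200 bases printed above lie outside it. Gtf2a2 had a peak of 2.35-fold and a −log10 q of 8.56 over 11 of its 14 TSSs. Gtf2a1l, the paralog of Gtf2a1 known for its expression in testis, had none nearer than 50083 bp.

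The remaining general factors were split. Gtf2f1, the larger TFIIF subunit, had a peak of 3.95-fold and a −log10 q of 9.42, and Gtf2f2, the smaller, had its nearest peak at 155071 bp. Gtf2h2, a core subunit of TFIIH, had a peak of 2.96-fold and a −log10 q of 9.32, and the other 4 TFIIH genes had none. One of these was Gtf2h1, with 67.1% GC and 163 input read ends around its TSS, the most of any machinery gene, and a nearest peak at 14172 bp. Neither TFIIE gene had a peak within 1 kb, with distances of 108230 bp for Gtf2e1 and 9993 bp for Gtf2e2. Gtf2b, which encodes TFIIB and lies on chromosome 3 beyond the segment of high input, had its nearest peak 115948 bp away.

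**Figure D3:**
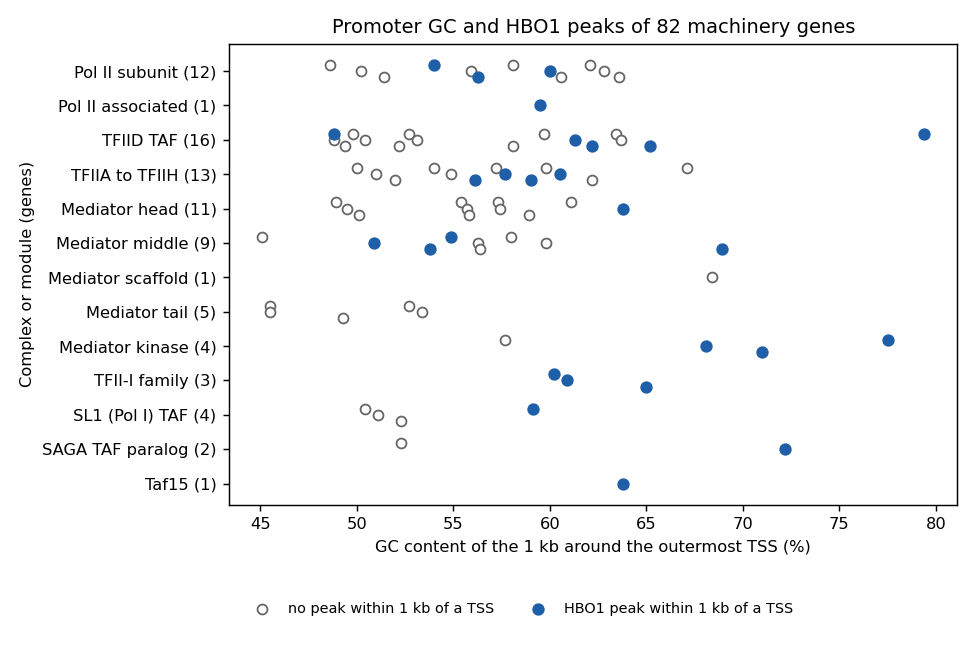
GC content of the 1 kb around the outermost TSS (x axis, percent) of each of the 82 genes, by complex or module (y axis, number of genes in parentheses; points are offset vertically for legibility). Blue points are the 27 genes with an HBO1 peak within 1 kb of a TSS and open points the other 55; the Mediator kinase genes with a peak lie from 68.1% to 77.5% GC, and the 5 tail genes, none with a peak, from 45.5% to 53.4%.

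Of the 30 Mediator genes, 8 had a peak, a share of 26.7% (12.3 to 45.9%) beside 24.6% from the GC classes and 34.1% from the CpG classes. The modules differed in their counts and also in their promoters. Of the 4 kinase module genes, 3 had a peak, with 47.4% from the GC classes and 45.7% from the CpG classes. Of the 5 tail genes none had, with 13.9% from the GC classes and 30.6% from the CpG classes. The median promoter GC content was 69.5% in the kinase module and 49.3% in the tail. Without the kinase module 5 of 26 Mediator genes had a peak, or 19.2%, beside 21.1% from the GC classes and 32.3% from the CpG classes.

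In the kinase module, Med13 and its paralog Med13l, which encode the subunit that links the module to the rest of Mediator, had peaks of 2.70-fold and 2.42-fold at −log10 q of 9.29 and 9.21. Of the paralogs that encode the activator of the kinase, Med12l, on chromosome 3 outside the segment of high input, had a peak of 2.17-fold and a −log10 q of 6.43 at an inner TSS, and Med12 had its nearest peak 16860 bp away. The promoters differed as well, with 71.0% GC at Med12l and 57.7% at Med12. So did the input, with 121 read ends around the TSS at Med12l and 40 at Med12, which lies on chromosome X. In the middle module 4 of 9 genes had a peak, Med4, Med7, Med19 and Med26, beside 21.9% from the GC classes and 29.1% from the CpG classes. The strongest was that of Med19, with 3.65-fold and a −log10 q of 12.8, the only Mediator gene to reach 10. It began 39 bp after the Med19 TSS and lay within 1 kb of TSSs of Tmx2 and Gm28635 too, so it cannot be given to one gene. Those of Med26, Med7 and Med4 had −log10 q of 7.73, 5.69 and 5.06.

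In the head module, which contacts the polymerase, 1 of 11 genes had a peak, or 9.09%, beside 21.3% (2.34 genes) from the GC classes and 33.4% from the CpG classes. It was Med22, with 2.32-fold and a −log10 q of 7.45. This peak lay upstream of Med22, from 199 bp, within 1 kb of the start of the ribosomal protein gene Rpl7a, and its summit was outside Med22. Med17, a central head subunit, shared as its nearest peak the one at Taf1d, 26221 bp away. The scaffold gene Med14, with 68.4% GC, had its nearest peak at 40451 bp, and 47.8% of other coding genes in its GC class had one within 1 kb. Med14 lies on chromosome X and had 68 input read ends around its TSS. Med13, Med26 and Gtf2h1, of the same GC class, had 95, 123 and 163. The other machinery genes on chromosome X, Med12, Taf1, Taf7l and Taf9b, had 13 to 40 and no peak within 1 kb. Whether the input bears on this was not tested. Med1, a subunit contacted by nuclear receptors, had its nearest peak 9518 bp away.

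The peak with the highest −log10 q and fold enrichment lay at a gene matched by name whose product does not serve RNA polymerase II. Taf1d encodes a subunit of SL1, the promoter selectivity factor of RNA polymerase I, and its peak on chromosome 9 from 15306152 to 15306739 covered 6 of its TSSs with 5.45-fold and a −log10 q of 43.7. It lay within 1 kb of a TSS of 4931406C07Rik as well. The other 3 SL1 genes had none within 1 kb, and the nearest were 89387 bp from Taf1a, 146725 bp from Taf1b and 38053 bp from Taf1c. All 3 TFII-I family genes, which are neighbors on chromosome 5 and so do not give independent counts of a region, had peaks, beside 32.6% from the GC classes and 39.0% from the CpG classes. That of Gtf2i, which encodes TFII-I, had 3.43-fold and a −log10 q of 23.8, Gtf2ird1 had 4.69-fold and 11.2, and Gtf2ird2 had 1.72-fold and 2.53, the weakest of the 27. Gtf2i and Gtf2ird1 have 24 annotated TSSs each, while the median over the 82 genes was 4. Both also had a peak by the outermost TSS alone, at 10 and 0 bp. The Gtf2ird1 peak at 0 bp was a further, weaker one of 2.06-fold and a −log10 q of 3.69. Its peak of 4.69-fold lay 985 bp from that TSS, over 25 input read ends, and covered no TSS.

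Of the remaining genes, Taf15, which encodes an RNA-binding protein of the FET family, had a peak of 2.96-fold and a −log10 q of 10.3. Taf5l, the paralog of Taf5 in the SAGA coactivator, had a peak of 2.67-fold and a −log10 q of 9.64, also within 1 kb of a TSS of Urb2. Taf6l, the SAGA paralog of Taf6, was the only machinery gene with its nearest peak between 1 and 2 kb, at 1674 bp, with 2.58-fold and a −log10 q of 13.1.

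The 27 genes had 35 peaks within 1 kb of their TSSs, and 8 had more than 1, namely Polr2a, Polr2e, Taf1d, Gtf2ird1, Gtf2a1, Taf4, Med26 and Med13l. The peak with the highest −log10 q covered a TSS in 17 genes, lay downstream in 8 and upstream in 2. The 2 upstream were those of Med22 and Taf4. Measured to the nearest own TSS, the summit was downstream in 20 genes and upstream in 7, with a median of 70.0 bp downstream. It fell in an intron in 8 genes, in a UTR in 7, in a coding exon in 5, in a noncoding exon in 3 and outside the gene in 4. In 5 genes this peak was also within 1 kb of another protein-coding gene, at Med19, Med22, Taf5l, Taf1d and Gtf2f1. These counts of peaks, sides, summits and shared promoters are given for the machinery genes alone. Without the same counts for other coding genes they do not set the machinery genes apart.

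**Figure D4:**
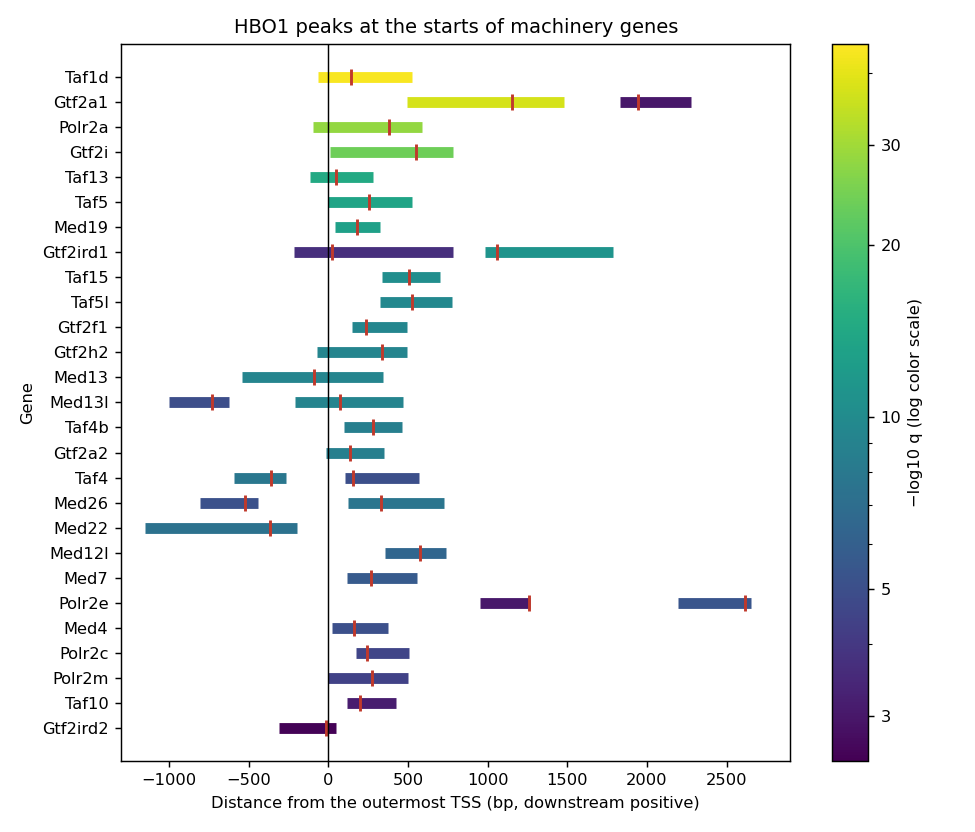
Position of the HBO1 peaks (bars) and their summits (red ticks) from the outermost TSS (x axis, bp, downstream positive) at the 27 machinery genes with a peak (y axis, ordered by highest −log10 q). Bar color gives −log10 q on a log scale, from 2.53 at Gtf2ird2 to 43.7 at Taf1d; the further peaks of Polr2a and Taf1d, from 21167 and 9684 bp, lie outside the plot, and 4 bars, at Med22, Med13l, Med26 and Taf4, lie wholly upstream.

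The peaks at machinery genes were of ordinary strength for peaks at promoters. The 35 peaks had a median fold enrichment of 2.38 and a median −log10 q of 7.87, and the 4969 peaks within 1 kb of other coding genes had 2.63 and 7.86. Width had a median of 450 bp at machinery genes and 437 bp at the others. The median fold enrichment was compared within ranges of input. In the 5 peaks with up to 39 input read ends per kilobase at the summit it had a median of 3.95, beside 4.47 in 1025 peaks at other coding genes. In the 14 with 40 to 79 it had a median of 2.75, beside 2.68 in 1307 peaks at other genes, and in the 12 with 80 to 119 it had a median of 2.23, beside 2.40 in 2033. In the 4 with 120 to 199 it had a median of 2.32, beside 2.26 in 540, so it did not fall at every step. The 4 highest by −log10 q, Taf1d, Gtf2a1, Polr2a and Gtf2i, lay over 44, 49, 47 and 102 input read ends. For 4 genes, Gtf2ird2, Taf10, Polr2m and Polr2c, the highest −log10 q was under 5. They ran from 2.53 at Gtf2ird2, close to the lowest value in the list of 2.30, to 4.54 at Polr2c.

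**Figure D5:**
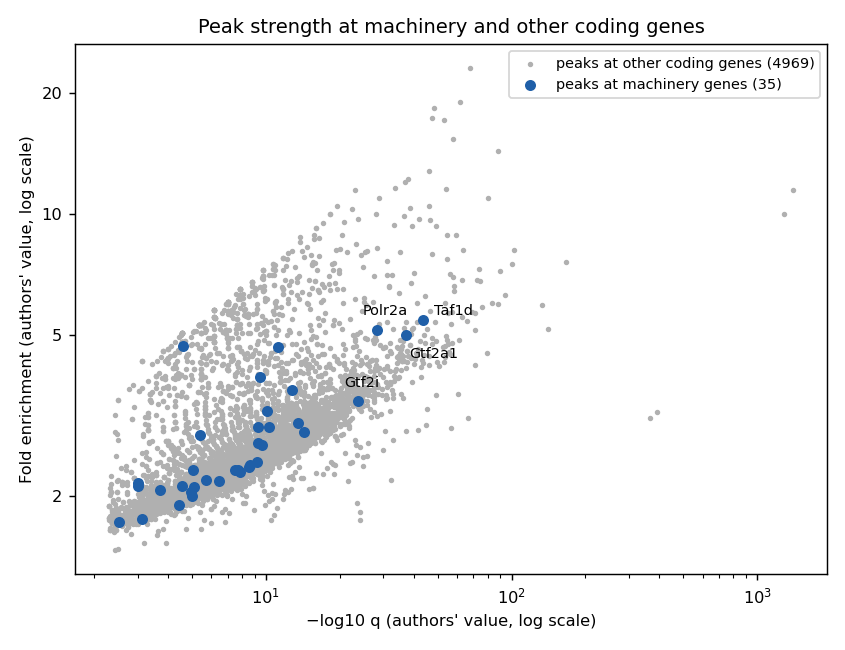
Fold enrichment (y axis, log scale) against −log10 q (x axis, log scale), both as the authors' peak caller gave them, for the 35 peaks within 1 kb of a TSS of a machinery gene (blue) and the 4969 at other coding genes (gray). The 4 labelled genes have a −log10 q above 20, and the blue points lie within the cloud of the gray ones.

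The 55 genes without a peak within 1 kb ranged widely in their distance to one. The nearest peak lay over 1 kb and up to 10 kb away for 12 of them, over 10 kb and up to 100 kb for 33, and over 100 kb for 10, the farthest being Taf9b at 290700 bp. The median distance was 29187 bp for these 55 genes and 11640 bp for all 82, and for all coding genes, with or without a peak, it was 33487 bp.

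The letters around the outermost TSS were compared next, as descriptions of sequence and not of bound factors. Each motif was searched as an exact match on both strands from 250 bases before to 50 after the TSS. They were TATAAA for the TATA box, CCAAT for the CCAAT box of NF-Y, GGGCGG for Sp1, CCGGAAG for ETS family factors, TGACGTCA for CREB factors, GCATGCGC for NRF1, AAGATGGC for YY1 and the octamer ATGCAAAT for Oct4, together with the MORE, which is ATGCAT written as a tandem repeat, with at most 1 mismatch. No motif was excluded where it overlapped another. The ETS motif CCGGAAG was held by 28 of the 82 genes (34.1%), and by 10.7% of other coding genes. It was found in 11 of the 27 with a peak (40.7%) and 17 of the 55 without (30.9%). Among other coding genes, 35.1% of those with CCGGAAG had a peak and 20.1% of those without it. The YY1 motif AAGATGGC was held by 9.76% of the machinery genes and 2.89% of the others. It was in 7.41% of the machinery genes with a peak and 10.9% of those without, while 38.9% of other coding genes with it had a peak and 21.2% of those without it. The Sp1 motif GGGCGG was held by 63.4% and 42.9%, and CCAAT by 39.0% of both. TGACGTCA was held by 4.88% and 2.42%, and GCATGCGC by 7.32% and 3.69%. Neither promoter GC content nor CpG ratio was held alike in these motif comparisons. Whether the shares differ from those of coding genes with like promoters was not tested.

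TATAAA was held by 11 of the 82 genes (13.4%) and 12.6% of other coding genes. It was in 8 of the 27 promoters with a peak (29.6%), those of Polr2a, Polr2c, Taf4b, Taf5, Taf13, Gtf2a2, Gtf2f1 and Med7. Of the 55 without a peak it was in 3 (5.45%), those of Med16, Med28 and Taf7l. Among the other coding genes the order was the opposite, since 12.1% of those with TATAAA and 23.1% of those without it had a peak. Several motifs were searched, and the machinery counts for TATAAA rest on 11 genes. Promoter GC content was not held alike in either comparison. The share of other coding genes with a peak was 0.365% in the lowest GC class and 60.3% in the highest. Whether the order differs between promoters of like GC content was not tested. In the Polr2a and Taf13 promoters printed above, TATAAA lies in capitals in the last 50 bases before the TSS.

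The study asked where HBO1 lies relative to MORE and octamer sites. The first are bound by a pair of Oct4 molecules and the second by a single molecule. It describes 2 consecutive MOREs upstream of Polr2a. No machinery gene held a MORE with at most 1 mismatch between 250 bases before and 50 after its TSS, nor within 1 kb of it, where 1.01% of other coding genes held one. With up to 2 mismatches, a wider scan chosen after these results were seen, 4 of the 82 genes (4.88%) held one within 1 kb, and 10.7% of other coding genes. They are shown as the letters of the plus strand, with the bases equal to the MORE in capitals.
Polr2a (chr11:69759107-69759118): cTGaATATGCAT
Gtf2a2 (chr9:70011631-70011642): ATGCATtTGaAT
Taf1 (chrX:101532185-101532196): ATatATATGCAT
Med8 (chr4:118408462-118408473): AcGCAcATGCAT
The match at Polr2a lay 470 bp upstream of the outermost TSS and 372 bp from the nearest peak, and that at Gtf2a2 908 bp upstream and 891 bp from the nearest peak. Those at Taf1 and Med8 lay 4101 and 117078 bp from one. Of these 4 genes Polr2a and Gtf2a2 had a peak within 1 kb of a TSS. Among other coding genes 13.8% of those with such a match and 22.6% of those without it had one. Promoter GC content was not held alike here, and a match in letters need not be bound by Oct4. The study instead started from Oct4 ChIP-seq peaks, comparing their motifs and their distances to HBO1 peaks. No Oct4 peaks were used here, so these shares do not bear on its comparison. The study counts both Polr2a and Taf12 among its MORE genes. At Polr2a it reports an HBO1 peak overlapping or next to the gene, and lower acetylation of histone H3 lysine 9 near the MORE after Jade1 knockdown. Taf12 held no match within 1 kb of its TSS even with 2 mismatches, which says only that these letters are not in this window. Likewise, the lack of a match with at most 1 mismatch at Polr2a does not show that it has no MORE. The octamer was found between 250 bases before and 50 after the TSS in 1 gene, Med16, and within 1 kb in 4, Med16, Polr2j, Polr2g and Taf9, or 4.88%, with 9.25% among other coding genes. These 4 had no peak within 1 kb, and among other coding genes with an octamer within 1 kb 16.3% had one, so a count of 0 of 4 does not set them apart.

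The most similar groups of genes were counted the same way. Subunits of RNA polymerase III (Polr3 genes) had a peak in 3 of 10 cases, with 28.9% from the GC classes, and subunits of RNA polymerase I (Polr1 genes) in 4 of 5, with 25.4%. The Polr1 peaks had −log10 q between 3.69 and 8.11, so 0 of these 5 genes reached 10, and none had a TSS inside a peak. At that limit 0 of 10 Polr3 genes had one as well. Ribosomal protein genes were taken by symbol, as every protein-coding gene whose name starts with Rpl or Rps plus a digit. This rule can take in genes of such a name that encode other proteins, and it leaves out symbols without that digit. These genes had a peak in 72 of 98 cases, a share of 73.5% (63.6 to 81.9%). The GC classes gave 21.6% and the CpG classes 33.7%. The median promoter GC content of these 98 genes was 56.4% and that of the machinery genes 56.8%. The interval given for their share treats genes as independent and covers counting error only, and the difference from the machinery genes was not tested.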

How the data were processed

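Chromatin of Oct1 deficient mouse ESCs was measured in 2 HBO1 ChIP samples and 1 input. Paired reads were aligned to mm10 with Novoalign (version 4.03.01 per the labels' processing notes) and peaks were called with Macs2 at q 0.005 and max-gap 100. How duplicates were treated and the samples combined is not given in the sources used here. The deposited peak list gives the authors' fold enrichment, a ratio over local background, and their −log10 q. The deposited input gives read ends with a mapping quality score from the authors' aligner, which was not used as a filter.

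Distances from peak edge to TSS, shares and motif matches were computed with Python 3.11.15, numpy 2.4.6, pandas 2.3.3 and scipy 1.17.1, and figures with matplotlib 3.10.9, on GENCODE vM21 and GRCm38. The steps were tested on simulated data. The outermost TSS is the 5′-most of a gene. A GC class share is the mean, over the genes of a group, of the share of other coding genes with a peak in the same class. Exact binomial intervals cover counting error only. From 1 peak list no p-value was computed. The members, complexes and gene lists were chosen with earlier results of these data known. Genes were named as every polymerase subunit gene, the 5 with the highest fold enrichment and the 5 with the highest −log10 q, all with a −log10 q of at least 10, Taf12, those on chromosome 3, those without a peak in the highest of 5 bands of promoter GC content, those with one in the lowest band, and those with the nearest peak between 1 and 2 kb. Other genes were named to account for each complex, after their values were seen. Alternatives changed the peak threshold, TSS set, distance, input, chromosome 3 segment, gene set and classes.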

Additional observations from a re-analysis of the deposited data

How the results depend on the processing

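The count of 27 genes, 32.9% of 82, stayed between 20 and 28 genes and 28.0 and 34.1% under every alternative other than the −log10 q limit of 10, and the share from like coding genes stayed between 19.7 and 28.4% apart from that threshold and the CpG classes. At a −log10 q of at least 10 there were 9 genes (11.0%), with 7.97% of all coding genes and 9.05% from the GC classes. A TSS lay inside such a peak in 6 genes (7.32%), with 4.80% of all coding genes, and counts were 1 for the polymerase, 2 for TFIID, 1 for TFIIA to TFIIH and 1 for Mediator, as fewer peaks enter by construction. Classes of CpG ratio gave 37.0%, which turned the direction of the difference, and the cause was not tested. With the outermost TSS only, 11 genes had a TSS inside a peak, with 3.53% of all coding genes, since fewer TSSs were counted. The CpG class shares for each complex were added after the data were seen. No paired analysis was possible because a single peak list was deposited and taken as that of both ChIP samples, which also prevented leaving out a replicate. The depth of the ChIP samples limits which peaks could be called and was not analysed here.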

Other observations

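A list of 37 other genes of initiation, pausing and elongation by RNA polymerase II was counted as well. Peaks within 1 kb of a TSS were found at 19 of them, or 51.4% (34.4 to 68.1%, exact binomial 95% confidence interval), with 28.6% from coding genes of like GC content and 39.0% from those of like CpG ratio. At a −log10 q of 10 or more the count was 3 of 37 (8.11%), beside 7.97% of all coding genes. The highest −log10 q was 25.9 at Supt16, a subunit of the histone chaperone FACT, followed by 20.9 at Hexim1, the inhibitor of P-TEFb, and 13.9 at Ctdp1, a phosphatase of the polymerase tail. Ssrp1, the partner of the Supt16 product in FACT, had its nearest peak 134769 bp away. The kinase and cyclin genes of the Mediator kinase module, Cdk8, Cdk19 and Ccnc, all had peaks, at −log10 q of 4.15, 6.41 and 3.84. In their GC classes 11.6 to 47.8% of other coding genes had a peak. Cdk9, Ccnt1 and Ccnt2 of P-TEFb had peaks as well, at 3.68, 5.54 and 4.42. In their GC classes the share was 7.66 to 60.3%. The fold enrichment of these peaks ran from 1.91 at Cdk9 to 2.23 at Ccnc. Of the kinase part of TFIIH, Mnat1 had a peak of 2.98-fold and a −log10 q of 4.75, and Cdk7 and Ccnh had none within 1 kb. Ercc3 and Ercc2, which also encode TFIIH subunits, differed, with a peak of 3.79-fold at Ercc3 and none nearer than 110288 bp at Ercc2. None of the 4 genes of the pausing factor NELF, Nelfa, Nelfb, Nelfcd and Nelfe, had a peak within 1 kb, and the nearest lay between 8928 and 114964 bp away. In their GC classes 20.1 to 40.2% of other coding genes had a peak, so 0 of 4 does not set them apart.

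Within the bodies of the 82 machinery genes, over 1 kb from their own TSSs, 13 further peaks were found in 11 genes. This was 13.4% of the genes and 4.59 peaks per Mb of gene, beside 12.5% and 3.97 for all coding genes. Neither kind of peak was found at 50 of the 82 genes, a count that was not made for all coding genes.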
